A study of Drosophila melanogaster with 2 samples.

Results

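The Rab genes of Drosophila melanogaster were examined for binding of Hr51 in late embryos. Members were the protein-coding genes whose symbol starts with Rab, or RabX, and a number in the Ensembl annotation; 36 of 13945 protein-coding genes met this rule. The symbol rule takes in 33 genes for Rab GTPases and 3 genes for regulators of Rab3 (Rab3-GEF, Rab3GAP1 and Rab3-GAP), which are not GTPases and are named separately below. Hr51 (unfulfilled) belongs to the NR2E group of nuclear receptors, which bind DNA and regulate transcription. It was mapped by chromatin immunoprecipitation and sequencing (ChIP-seq) with an antibody against GFP in whole embryos of mixed sex, aged 14 to 16 h, from the strain Dhr51-GFP. These flies stably express Hr51 with GFP (eGFP in the experiment's description) fused to its C-terminal end; the labels do not say which promoter drives the transgene or whether the native gene is still present. There was 1 group of 2 samples, biological replicates 1 and 3, and no second condition, so the comparisons below are between genes, between replicates and against all protein-coding genes. No group here carried GFP alone or no tag.

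Rab proteins are small GTPases that sit on the membranes of the cell's compartments. In the GTP-bound state each recruits effectors that move, tether or fuse vesicles at a particular step, such as export from the endoplasmic reticulum, uptake at the plasma membrane or release of synaptic vesicles. Guanine nucleotide exchange factors (GEFs) switch them on, GTPase-activating proteins (GAPs) switch them off, and GDI and the prenylation machinery put them on and take them off membranes. Many are used by every cell, whereas Rab3, Rab26 and Rab27 are known for regulated secretion and synapses.

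Promoter peaks were found at 11 of the 36 Rab-named genes. A promoter peak was a reproducible peak (one in the list the authors thresholded by irreproducible discovery rate; whether replicates or splits of the pooled reads were compared is not stated in the labels or file notes) whose summit, the point of highest signal, lay within 1 kb of a transcription start site (TSS) of the gene. The share was 30.6% (95% Wilson interval 18.0 to 46.9%, counting error only), beside 23.3% of all protein-coding genes, which lies inside that interval. Among the 33 GTPases the count was 10 (30.3%), and Rab3GAP1 was the only one of the 3 regulators with such a peak. The 11 genes were Rab5, Rab14, Rab3GAP1, Rab39, Rab11, Rab26, Rab40, Rab18, Rab32, Rab9 and Rab23, in order of falling signal. Signal is the authors' score for each peak; no source used here states its scale, and it serves only to rank peaks within a list.

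The DNA at 8 summits is shown because these are the summits that the description turns on: the 3 strongest promoter summits (Rab5, Rab14 and Rab3GAP1), the promoter and an intron of Rab11, an internal promoter (Rab26), and the promoters that Rab40 and Rab23 share with a divergent neighbour. The sequences are from the RefSeq copy of the dm6 assembly. Each line runs 5′ to 3′ on the strand of the Rab-named gene, over the 50 bp on each side of the summit and without any base of an annotated exon. The Rab23 line is 1 base short, at 100 bp where the others have 101 bp. Capitals mark a match, on either strand, to 1 of the 12 motifs described further below.
Rab5 (chr2L:2363693-2363793, minus strand): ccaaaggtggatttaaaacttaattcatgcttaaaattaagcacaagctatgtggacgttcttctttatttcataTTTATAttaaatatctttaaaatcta
Rab14 (chr2L:14355696-14355796, plus strand): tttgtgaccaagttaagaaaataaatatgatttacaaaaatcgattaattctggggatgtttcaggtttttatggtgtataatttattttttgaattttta
Rab3GAP1 (chr2L:1611231-1611331, minus strand): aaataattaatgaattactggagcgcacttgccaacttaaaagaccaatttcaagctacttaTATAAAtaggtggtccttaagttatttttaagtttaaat
Rab11 promoter (chr3R:21111198-21111298, plus strand): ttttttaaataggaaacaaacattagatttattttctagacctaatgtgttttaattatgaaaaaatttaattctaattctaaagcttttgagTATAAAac
Rab11 intron, weaker summit (chr3R:21112550-21112650, plus strand): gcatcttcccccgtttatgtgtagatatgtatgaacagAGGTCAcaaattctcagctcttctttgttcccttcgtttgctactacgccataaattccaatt
Rab26 (chr3L:21321988-21322088, plus strand): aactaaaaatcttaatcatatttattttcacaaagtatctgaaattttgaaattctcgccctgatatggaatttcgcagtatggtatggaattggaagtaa
Rab40 (chrX:12463182-12463282, minus strand): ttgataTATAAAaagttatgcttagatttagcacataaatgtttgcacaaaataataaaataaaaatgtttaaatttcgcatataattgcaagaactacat
Rab23 (chr3R:5685755-5685854, minus strand): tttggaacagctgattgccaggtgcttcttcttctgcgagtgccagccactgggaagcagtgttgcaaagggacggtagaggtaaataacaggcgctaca
The GC content of the windows shown ran from 18.8% at the Rab11 promoter to 52.0% at Rab23. Over the 12 promoter summits of the Rab-named genes the median GC content of the summit and 50 bp on each side was 28.2%, beside 29.7% over all 3073 reproducible promoter summits of protein-coding genes.

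**Figure D1:**
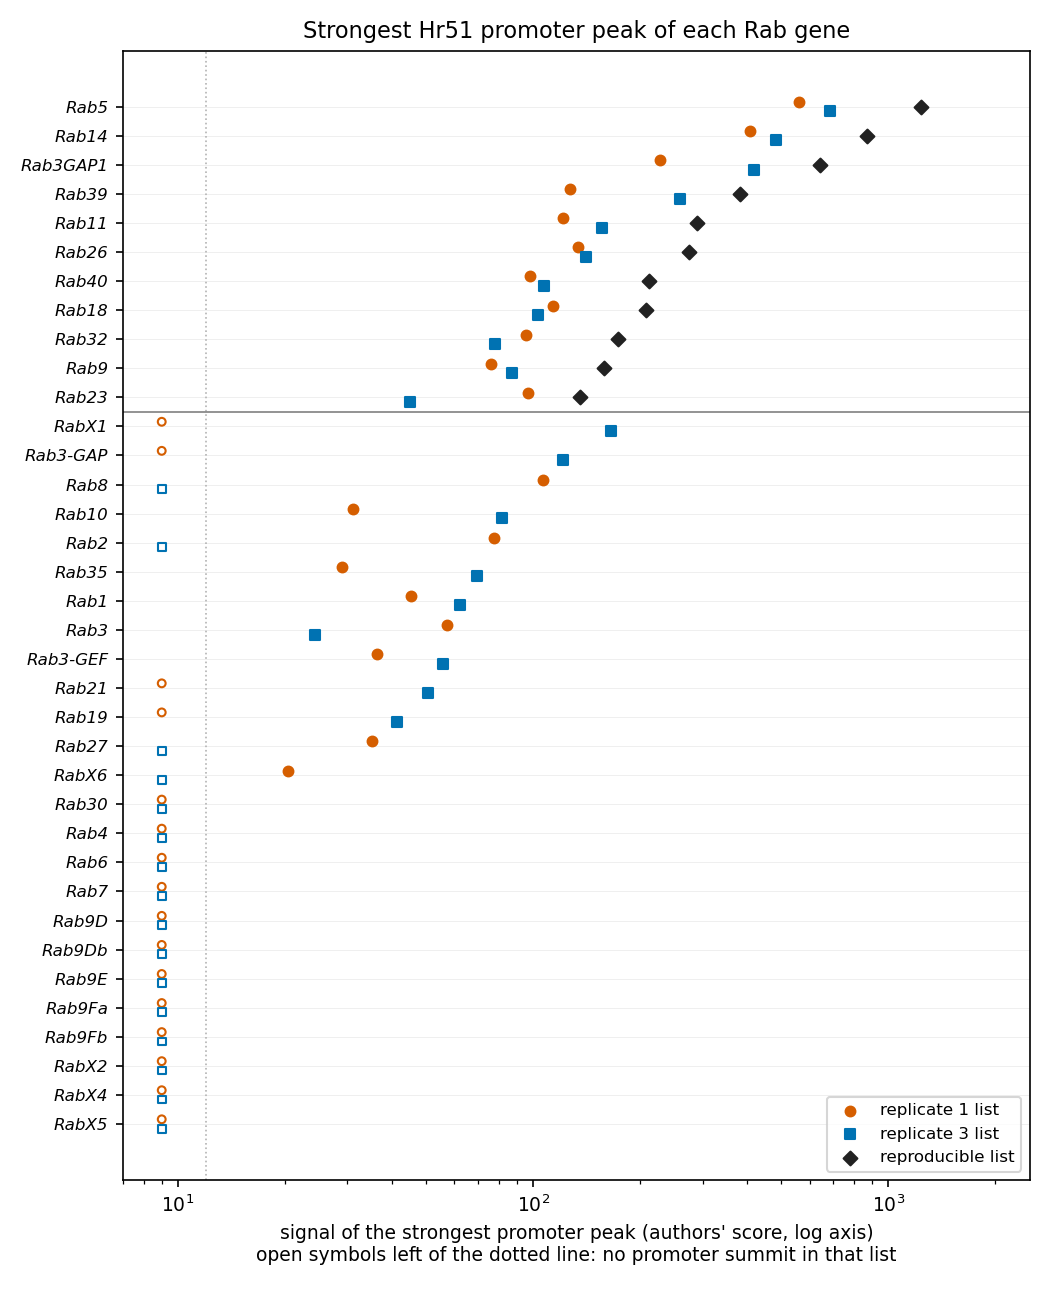
Strongest Hr51 promoter peak of each of the 36 Rab-named genes (rows). The x axis is the authors' signal on a log scale, with circles for the replicate 1 list, squares for the replicate 3 list and diamonds for the reproducible list; open symbols left of the dotted line mark a list with no promoter summit. Above the grey line are the 11 genes with a reproducible promoter peak, from Rab5 at 1233 down to Rab23 at 135; the lists have separate scales, so only the order within a list can be read.

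The highest promoter signals of the Rab-named genes were at Rab5 and Rab14, both endosomal Rabs. Of the 6 Rabs of early and recycling endosomes, 3 had a promoter peak (Rab5, Rab14 and Rab11) and 3 did not (Rab4, Rab21 and Rab35). Rab5, the Rab of early endosome fusion (FBgn0014010, chr2L:2359142-2365273), has 6 annotated TSSs and its peak (chr2L:2363555-2363941) lay in an intron, with the summit 239 bp upstream of an internal TSS and within 1 kb of 3 of the 6. Its signal was 1233 in the reproducible list, 561 in replicate 1 and 687 in replicate 3, with ranks of 413 of 7229, 383 of 30000 and 436 of 30000. Rab5 was therefore high in all 3 lists, and it was the highest of the Rab promoter peaks in each.

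Rab14, which in mammals works between the Golgi and endosomes (FBgn0015791, chr2L:14355145-14358764), had 2 promoter summits in the first intron of its longest transcript, 601 and 803 bp downstream of the most upstream of its 3 TSSs. The stronger one (chr2L:14355583-14355963) had a signal of 869.7, with 408 in replicate 1 and 483 in replicate 3. The weaker one lay in a peak (chr2L:14355583-14355969) that contains the peak of the stronger one. Its signal was 159, with 111 in replicate 1 and 36.1 in replicate 3, and its ranks of 4442 and 14073 were far apart. Only the stronger Rab14 summit thus ranked high in both replicates. The same DNA is an intron of the noncoding gene lncRNA:CR44851. A further summit of 359 (188 in replicate 1 and 167 in replicate 3) lay beyond the 3′ end of Rab14, 354 bp upstream of the TSS of Pgant35A.

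Rab11, the Rab of recycling endosomes (FBgn0015790, chr3R:21111408-21116146), carried 3 summits, and the one at its promoter was the weakest. The promoter summit (peak chr3R:21111152-21111349) was intergenic, 160 bp upstream of the TSS, with a signal of 289, and of 121 in replicate 1 and 156 in replicate 3. Inside the gene, 2 intronic summits 1192 and 1816 bp downstream of the TSS had signals of 444 and 932. The intronic summit of 932 had 431 in replicate 1 and 506 in replicate 3, at ranks 624 and 730, so it was above the promoter summit in both. Just outside the 1 kb limit lay a summit 1170 bp upstream of the Rab23 TSS (signal 344, in an intron of plx), the weaker intronic Rab11 summit at 1192 bp and the RabX5 summit at 1376 bp. Just inside it were those of Rab9 at 889 bp and Rab18 at 863 bp.

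**Figure D2:**
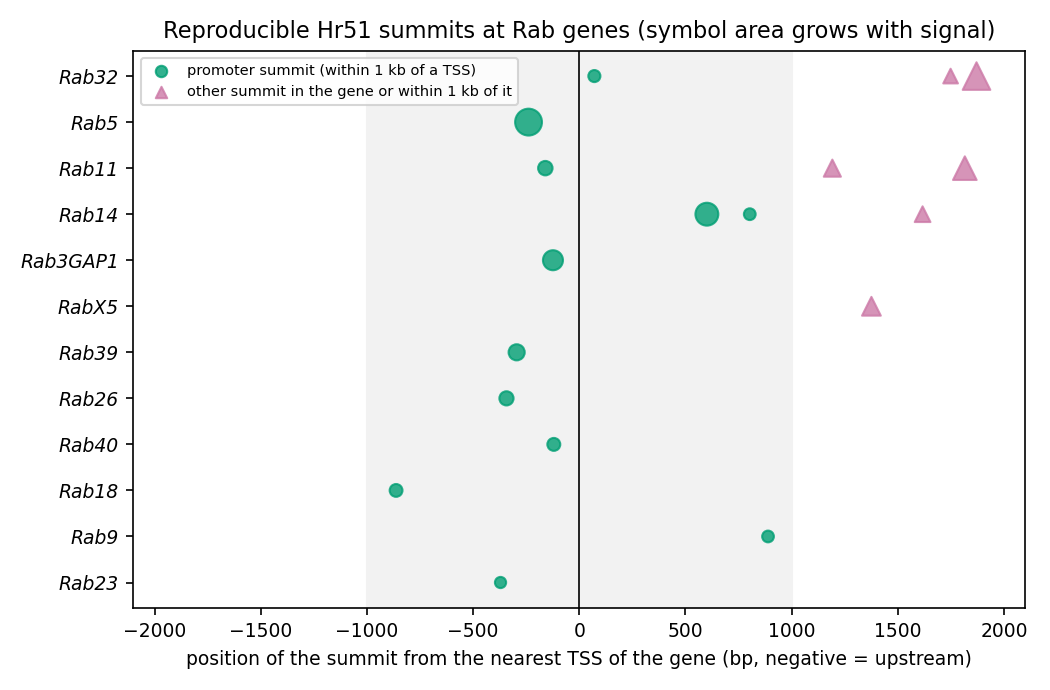
Reproducible Hr51 summits at the 12 Rab-named genes that have any inside the gene or in its 1 kb flanks. The x axis is the position of the summit from the nearest TSS of the gene in bp (negative is upstream, the shaded band is 1 kb on each side), symbol area grows with signal, circles are the 12 promoter summits and triangles the 6 others. Circles lie upstream of the TSS in 8 of 12 cases, and all 6 triangles lie downstream of it. For genes with 1 TSS the definitions fix this place of the triangles, as a summit in the upstream 1 kb counts as a promoter summit.

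Among Rabs of the secretory pathway and Golgi, 2 of 7 had a promoter peak (Rab18 and Rab39), and both summits lay nearer to a neighbouring gene. Rab39 (FBgn0029959, chrX:7734923-7736756) had its summit (peak chrX:7734482-7734710) 295 bp upstream of its TSS, in the 5′ UTR of Pdp, a pyruvate dehydrogenase phosphatase gene on the other strand, and 23 bp from a TSS of Pdp. Its signal was 383, with 127 in replicate 1 (rank 3762) and 259.8 in replicate 3 (rank 1957). Rab18, known for lipid droplets and the endoplasmic reticulum (FBgn0015794, chrX:5670827-5671812), had its summit (peak chrX:5672470-5672879) 863 bp upstream of its TSS, in an intron of the ribosomal protein gene RpL35 and 59 bp from a TSS of RpL35. Its signal was 208, with 113 in replicate 1 and 103 in replicate 3. The other 5 of this group, Rab1, Rab2, Rab6, Rab19 and Rab30, had no reproducible summit inside the gene or in 1 kb of flank.

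Late endosome, lysosome and polarity Rabs had promoter peaks below the median signal of their list. Rab9, which in mammals returns cargo from late endosomes to the Golgi (FBgn0032782, chr2L:19432574-19435841), had an intronic summit (peak chr2L:19433258-19433667) 889 bp downstream of its TSS with a signal of 158, and of 76.2 in replicate 1 and 87.04 in replicate 3. Rab7, the central Rab of late endosomes, had none. Rab32, which makes the pigment granules of the fly eye (FBgn0002567, chr2R:9177864-9186342), had a summit (peak chr2R:9186066-9186475) in its 5′ UTR, 71 bp downstream of 1 of its 5 TSSs, with a signal of 173, and of 95.4 in replicate 1 and 78.3 in replicate 3. A stronger summit of 1308, in intergenic DNA beyond the 3′ end of Rab32, lay 214 bp upstream of the TSS of Rme-8, which encodes an endosomal J-domain protein. Rab32 also held an intronic summit of 301. Rab23, a planar polarity gene in the fly wing (FBgn0037364, chr3R:5680054-5685434), had the weakest promoter peak (chr3R:5685600-5686009), with a signal of 135 at rank 7220 of 7229. Its replicate values were 96.9 and 45.0, with ranks of 5176 and 11495, so it sat at the edge of the reproducible list.

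Of the Rabs of synapses and regulated secretion, 1 of 3 had a promoter peak. Rab26, linked in mammals to synaptic vesicles and autophagy (FBgn0086913, chr3L:21318774-21335027), has 3 TSSs and had an intronic summit (peak chr3L:21321860-21322143) 343 bp upstream of an internal TSS. Its signal was 274, with 134 in replicate 1 and 141 in replicate 3, at ranks 3503 and 3949. Rab3, the Rab of synaptic vesicle release, and Rab27 had no reproducible summit. Rab3 had a summit in both replicate lists, 70 and 68 bp downstream of its TSS, with low signals of 57.1 (rank 9334) and 24.3 (rank 20105), and Rab27 had one in replicate 1 only (35.2, rank 15639).

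The Rab3 regulator Rab3GAP1, related to the catalytic subunit of the mammalian Rab3 GAP (FBgn0051935, chr2L:1594822-1611157), had the third highest promoter peak (chr2L:1611148-1611459). Its summit was intergenic, 124 bp upstream of its TSS and 129 bp upstream of that of CG14352. The signal was 643, with 228 in replicate 1 (rank 1739) and 419 in replicate 3 (rank 1000). Rab3-GAP and Rab3-GEF had no reproducible promoter peak.

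Neither the exocytic Rabs nor the 10 RabX and short Rab9-like genes had a promoter peak. Neither Rab8 nor Rab10, which deliver cargo to the plasma membrane, had a reproducible peak. Of the 11 remaining Rabs 1 had one: Rab40, which carries a SOCS box and acts with ubiquitin ligases (FBgn0030391, chrX:12459796-12463112), with its summit (peak chrX:12463027-12463436) 120 bp upstream of its TSS, a signal of 212, and 97.9 and 107 in replicates 1 and 3. RabX5 had no promoter peak but a summit of 554 (replicate values 189 and 383) beyond its 3′ end, 78 bp upstream of the TSS of the ribosomal protein gene RpL23A. With RabX5, 12 of 36 Rab-named genes had a reproducible summit inside the gene or in its 1 kb flanks (33.3%), beside 30.4% of all protein-coding genes. The other 24 had no reproducible summit there, and for the 25 genes without a promoter peak the nearest reproducible summit lay from 1376 to 32207 bp from a TSS, with a median of 6426 bp.

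The Rab promoter peaks were mostly of moderate strength and near the start site. The strongest promoter peak per gene had a median signal of 274 over the 11 Rab-named genes, beside 388 over the 3247 genes with a promoter peak, and 3 of the 11 (Rab5, Rab14 and Rab3GAP1) lay above the latter. The median offset of the 12 summits was -142 bp (negative is upstream); 8 were upstream, 7 of them within 400 bp. By gene, the strongest promoter summit was upstream in 8 of 11 cases (median -160 bp), beside 82% of all genes with a promoter peak (median -170 bp).

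**Figure D3:**
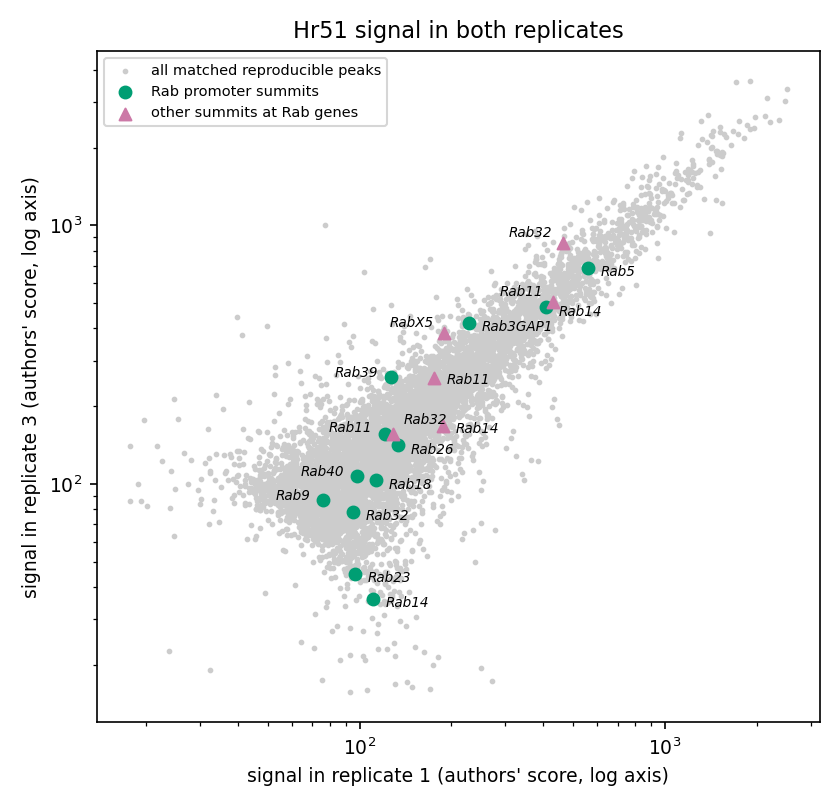
Signal in replicate 1 (x axis) and replicate 3 (y axis), both the authors' score on log axes, for reproducible peaks matched in both replicates. Grey points are all such peaks, green circles the 12 Rab promoter summits and pink triangles the 6 other summits at Rab-named genes. Rab5 and the stronger Rab14 summit lie high in both; Rab23 and the weaker Rab14 summit lie low in replicate 3, at 45.0 and 36.1.

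Each of the 12 promoter summits was matched in both replicates. A match was a replicate peak that overlapped the reproducible peak by at least 1 bp, and 97.3% of all 7229 reproducible peaks had one in both lists; the reproducible list came from the same reads, so this share is in part built in. Replicate summits lay from 2 to 87 bp (median 18.5) from the reproducible one in replicate 1 and from 1 to 44 bp (median 15.5) in replicate 3. In 11 of 12 cases both shifts were 50 bp or less, the exception being Rab23, whose replicate 1 summit was 87 bp away. The 2 Rab14 summits lie in overlapping peaks, so their matches by overlap are not separate. The 6 other summits were matched in both replicates as well.

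Taken from the whole replicate lists, which hold weak calls too, promoter summits were present at 20 of 36 Rab-named genes in replicate 1 and at 20 in replicate 3 (55.6% in each), beside 40.5% and 42% of all protein-coding genes. Both lists held one at 16 genes (44.4%, 95% Wilson interval 29.5 to 60.4%), beside 34.6% of all genes. The pooled list held one at 18 genes, beside 38.3% of all genes. The 11 genes with a reproducible promoter peak had the same strongest signal and rank in the pooled list. The next Rab-named gene there was Rab10 (119.9, rank 8081), below the lowest reproducible signal of 135.1. Among Rab-named genes the reproducible list thus divided them as a cut on the pooled signal would. The 16 genes in both replicate lists were the 11 above and Rab1, Rab3, Rab10, Rab35 and Rab3-GEF. At Rab1, the Rab of transport from the endoplasmic reticulum to the Golgi, the summit lay 67 bp upstream of the TSS in both replicates, with signals of 45.4 (rank 12031) and 62.3 (rank 8615). The values were 31.02 and 81.9 at Rab10 and 28.98 and 69.6 at Rab35. At Rab3-GEF the strongest summits of the replicates were different peaks. They were 36.2 in replicate 1, 235 bp upstream of the TSS, and 55.8 in replicate 3, 879 bp downstream. This replicate 1 peak overlapped a replicate 3 peak and a pooled peak. The replicate 3 peak of 55.8 overlapped no replicate 1 peak and no pooled peak.

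At 4 genes the promoter summit was in replicate 1 only (Rab2, Rab8, Rab27 and RabX6) and at 4 in replicate 3 only (Rab19, Rab21, Rab3-GAP and RabX1). Each was 11.1% of the 36 genes (Wilson interval 4.41 to 25.3%). No share of all protein-coding genes with a promoter summit in a single replicate is given, so only the counts can be set beside these. Of all 13945 protein-coding genes, 5652 had a promoter summit in replicate 1, 5858 in replicate 3 and 4826 in both. Some of the Rab summits in a single replicate were not weak. RabX1 had a replicate 3 signal of 166 at rank 3334, 137 bp upstream of its TSS, above those of Rab26 and Rab11 in the same list. Rab3-GAP had 121 at rank 4577 in replicate 3, 145 bp upstream, and Rab8 had 107 at rank 4617 in replicate 1, 5 bp upstream. No peak of the other replicate and no pooled peak overlapped these 3 or the Rab2 peak of 77.5 in replicate 1. Among the highest 7229 peaks of each replicate, 2.21% in replicate 1 and 4.04% in replicate 3 had neither. The other 12 genes had a promoter summit in neither replicate (33.3%, beside 52.1% of all genes): Rab4, Rab6, Rab7, Rab30, RabX2, RabX4, RabX5, Rab9D, Rab9Db, Rab9E, Rab9Fa and Rab9Fb.

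A group of 6 short genes on X had no promoter summit in any list. RabX2, Rab9D, Rab9Db, Rab9E, Rab9Fa and Rab9Fb are each from 791 to 897 bp long and lie between 10417429 and 10952486 on X. Their sequences are partly copies of each other or of other places: of the 32-base words in the 2001 bp around the TSS, 43.0% at Rab9Fa, 45.2% at Rab9E, 45.4% at Rab9Db and 53.2% at Rab9D occurred once in the genome, while the share was 83.3% at RabX2 and 97.1% at Rab9Fb. For 29 of the other 30 genes it was 100%, and for RabX6 it was 99.5%. How reads that map to several places were treated is not stated in the labels or file notes, and the part of this in the missing peaks was not tested. Without these 6 genes the count was 11 of 30 (36.7%, Wilson interval 21.9 to 54.5%). That interval still includes the 23.3% of all protein-coding genes, from which no genes were removed. The 6 were left out together, although most words at Rab9Fb and RabX2 occurred once in the genome.

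Promoter peaks were more frequent at Rab-named genes with several TSSs, as they were over all genes. Of the 9 with more than 1 TSS, 5 had a promoter peak (55.6%), beside 41.4% of all such genes, and of the 27 with a single TSS, 6 did (22.2%), beside 16.8%. The 11 genes with a promoter peak had a median length of 4739 bp and the 25 without one of 1896 bp. These differences in size and TSS number stand beside the count of 11 of 36, and their part in it was not tested.

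At 6 of the 11 genes the promoter summit also lay within 1 kb of the TSS of another protein-coding gene, in each case a divergent neighbour on the opposite strand: Rab14 with l(2)34Fd, Rab3GAP1 with CG14352, Rab39 with Pdp, Rab40 with CG42258, Rab23 with plx, and Rab18 with RpL35. That share of 54.5% lay beside 54.3% of all genes with a promoter peak. At Rab39, Rab23 and Rab18 the summit was nearer to the neighbour's TSS, at 23, 50 and 59 bp, than to that of the Rab gene. These were 27.3% of the 11 genes, and no such share is given for all genes with a promoter peak. The neighbour of Rab23 is itself in the pathway: plx encodes a protein with the TBC domain of Rab GAPs, and the summit lay 50 bp upstream of its TSS. At Rab3GAP1 the summit sat about midway in the 253 bp between both TSSs, and at Rab40 it was nearer to Rab40, 296 bp from CG42258. At Rab14, whose TSS lies 60 bp from that of l(2)34Fd, the summits were inside the Rab14 intron. Over all Rab-named genes, 8 of the 19 with an opposite-strand TSS of a protein-coding gene within 1 kb had a promoter peak (42.1%, beside 33.6% of all such genes) and 3 of the 17 without one did (17.6%, beside 17.3%). A peak list cannot tell which of the genes at a shared promoter is affected.

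**Figure D4:**
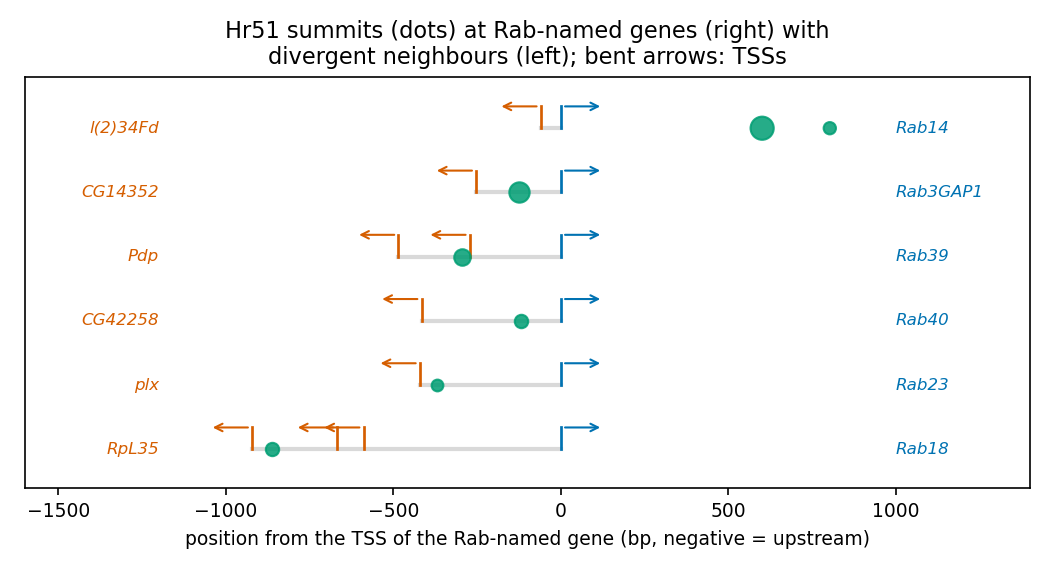
Hr51 promoter summits (green dots, area grows with signal) at the 6 Rab-named genes whose summit lies within 1 kb of a divergent protein-coding neighbour. The x axis is the distance in bp from the TSS of the Rab-named gene (blue arrow, transcription to the right), and orange arrows are all TSSs of the neighbour. The summit lies between the TSSs at Rab3GAP1, Rab40 and Rab23, beside or among the neighbour's TSSs at Rab39 and Rab18, and inside the Rab14 gene.

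The 12 motifs were looked for on both strands. They were the nuclear receptor half-site AAGTCA, the related half-site AGGTCA, the longer half-site AAAGTCA (which contains the first), the GAGA motif GAGAG, the DRE motif TATCGATA, its shorter core CGATA (contained in it), the E-box CACGTG, the GATA motif GATAAG, the Zelda motif CAGGTAG, the AP-1 motif TGACTCA, the TATA box TATAAA and the CA repeat CACACA. None of the 12 Rab promoter windows, 50 bp on each side of the summit, held AAGTCA or AGGTCA, beside 7.32% of the 3073 promoter windows of all protein-coding genes. The TATAAA motif was in 4 of the 12 (33.3%, beside 25.6%), at Rab5, Rab3GAP1, Rab11 and Rab40, in capitals in the lines shown. The other 9 motifs were in none of the 12 windows; over all promoter windows their shares ran from 0.293% for CAGGTAG to 13.3% for CGATA. Away from promoters, AGGTCA was present in the weaker intronic window of Rab11 shown above. These matches describe letters in a window and not bound sites, and 12 windows are few beside motifs this rare.

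Genes that act on Rabs were described by the same rule, from lists that are not members unless said. Of 65 cycle, GEF, GAP and effector genes that are not members, 24 had a promoter peak (36.9%, 95% Wilson interval 26.2 to 49.1%). Of 25 genes of the Arf, Arl, Sar, Ras and Ran GTPases, 5 did (20.0%, 8.86 to 39.1%). Both stand beside the 23.3% of all protein-coding genes.

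Rab GAPs had promoter peaks in 8 of 12 cases (66.7%, 39.1 to 86.2%), beside 23.3% of all protein-coding genes. This was the highest share of the 6 pathway lists. The strongest GAP peaks were at wkd (whacked, signal 786), sky (skywalker, a GAP of synaptic vesicle traffic, 743) and the member Rab3GAP1 (643). The replicate values were 301 and 481 at wkd and 327 and 397 at sky. The GAP genes had a median of 2 TSSs and a median length of 5300 bp, beside 1 TSS and 2881.5 bp for the Rab-named genes. Over all protein-coding genes with more than 1 TSS, 41.4% had a promoter peak, which lies inside the GAP interval. The part of TSS number and length in the GAP share was not tested. Of the 8, the peak at Evi5 was weak in replicate 1, at rank 26485, beside rank 3104 in replicate 3. GEFs had 4 of 17 (23.5%, 9.56 to 47.3%), led by Mon1, a subunit of the Rab7 GEF (1517), spri (sprint, 1315) and Rich (253). The Mon1 summit was 87 bp upstream of its TSS, and its replicate values were 583 and 928. The genes of the membrane cycle and prenylation had 2 of 4, RabGGTa (487) and RabGGTb (465), both subunits of the enzyme that attaches lipid to Rabs; Gdi and Rep had none. Effectors and tethers had 11 of 35, led by Rbsn-5, a Rab5 effector (1019), Mical (878) and Golgin97 (814).

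Genes of other small GTPase families were counted in the same way. Arf, Arl and Sar genes had 2 of 12 (16.7%, 4.7 to 44.8%), Arl1 (1688) and Arl5 (401). Both act at the Golgi in other species. Ras family and Ran genes had 3 of 13 (23.1%, 8.18 to 50.3%), namely Rheb (349), Rap2l (294) and Rgk2 (216). The intervals of both lists include 23.3%, the share of all protein-coding genes.

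**Figure D5:**
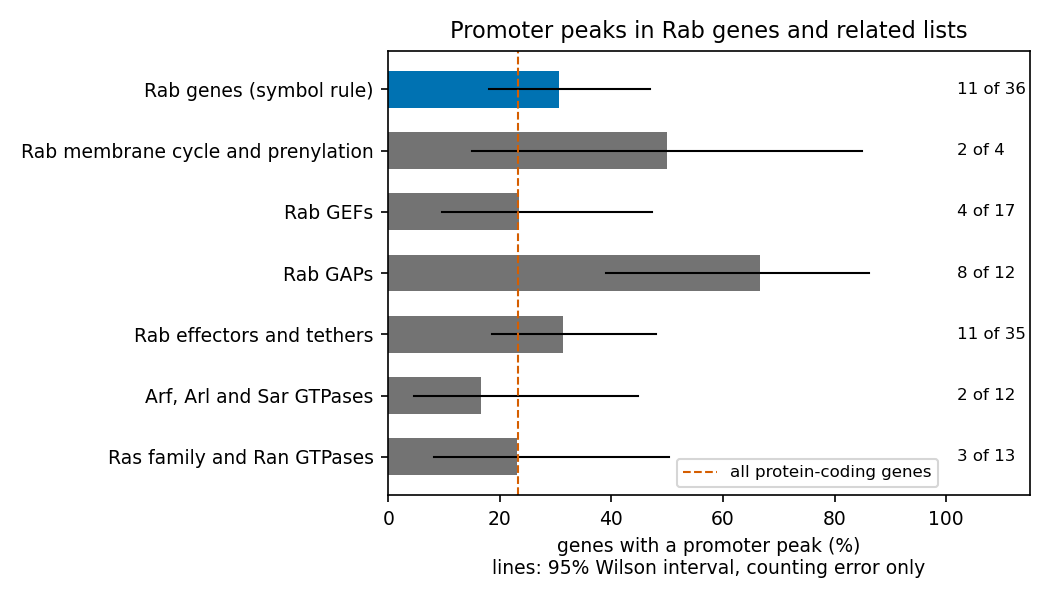
Share of genes with a promoter peak (x axis, %) in the Rab-named genes (blue) and in 6 related lists (grey), with the count at the right of each bar and the 95% Wilson interval as a line; the dashed line is the 23.3% of all protein-coding genes. The Rab bar is at 30.6% and the GAP bar at 66.7%; 2 of the 12 GAP genes and 1 of the 17 GEF genes are also Rab-named genes.

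Depth could not be assessed from the peak lists, and the embryos were whole, so binding in few cells and weak binding in many cannot be told apart. Replicate lists each held 30000 peaks, and the lowest signal in the reproducible list was 135.1.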

How the data were processed

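Peak lists of 2 Hr51 ChIP-seq samples were used. Per the labels, the DNA was sheared by sonication to a size range of 200 to 800 bp and the assembly is dm6. Aligner, peak caller and settings are not stated in the labels or file notes. The authors deposited 1 list per replicate, 1 pooled list and 1 thresholded by irreproducible discovery rate (7229 peaks). Each peak has a signal, a deposited score with no stated scale, a −log10 q-value deposited by the authors, which was at its ceiling of 4.25 in all reproducible peaks, and a summit offset. Depth per sample is unknown.

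Positions are 1-based. TSSs came from all transcripts in Ensembl release 115 (dm6 coordinates), and DNA from the RefSeq copy of the assembly; no peak ran past a chromosome end. Counts, medians and Wilson intervals were computed with python 3.11.15, pandas 2.3.3 and scipy 1.17.1, and figures drawn with matplotlib 3.10.9. With 1 group there was no test between conditions. Promoter assignment was tested on simulated data. Every member with a summit was to be named, and the 3 highest genes of each pathway list. The members and lists were chosen with earlier results of these data known. Of the pathway list symbols, 10 matched no protein-coding gene and were left out. Another pathway list is not reported here. Alternatives were other TSS distances, 1 TSS per gene, the peaks above the median signal, the pooled list and the highest peaks of each replicate alone. Wider and narrower motif windows and the repeats for pathway lists were added after the data were seen.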

Additional observations from a re-analysis of the deposited data

How the results depend on the processing

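The count of 11 Rab-named genes with a promoter peak was 8 within 500 bp of a TSS, 12 within 2000 bp and 9 from the most upstream TSS alone, where 19.6%, 29.4% and 21.1% of all protein-coding genes had one. Within 500 bp, Rab9, Rab14 and Rab18 dropped out, and with the most upstream TSS alone Rab5 and Rab26 did. These include the genes of the 2 highest promoter signals, Rab5 and Rab14. The count was 6 with only the reproducible peaks above the median signal (15.4% of all genes) and 18 with all pooled peaks (38.3%). Without replicate 3 it was 13 (24.0%), where Rab2 and Rab8 entered. Without replicate 1 it was 13 (24.9%), where Rab10, Rab3-GAP and RabX1 entered and Rab23 dropped out. Here a replicate alone meant its highest peaks and not its whole list. Rab32, at rank 7014 in replicate 3, was counted, and Rab35, at rank 7798, was not. For the GTPases the count of 10 became 5 above the median signal and ran from 11 to 12 with a replicate left out. Upstream summits fell from 8 to 5 above the median signal and numbered 10 with either replicate left out. The median offset of -142 bp was -199.5 bp within 500 bp, -199.5 bp above the median signal and -122 bp with the most upstream TSS, and ran from -149 to -135 bp with a replicate left out. Within 2000 bp it reversed to 71 bp, over 19 summits, as summits between 1000 and 2000 bp entered. The median signal of 243.3 was 281.37 within 500 bp, 344.1 within 2000 bp, 512.96 above the median signal and 210.02 with the most upstream TSS; with a replicate left out it ran from 110.6 to 131.1, on those lists' own scales. Summits matched in both replicates numbered 19 within 2000 bp and 6 above the median signal. Genes with any summit fell from 12 to 6 without flanks. No share of all protein-coding genes is given for that setting, so the fall cannot be set beside theirs. With 100 bp on each side of the summit, 1 of the 12 Rab promoter windows held a half-site (Rab23, 8.33%), beside 14.1% of all promoter windows. The count of 5 Arf, Arl, Sar, Ras and Ran genes was 8 within 2000 bp and ran from 7 to 9 with a replicate left out, 9 being without replicate 3. No paired analysis was possible because there was 1 group.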
